A study of Mus musculus with 56 samples.

Results

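The cytosolic ribosomal proteins are the protein building blocks of the ribosomes that translate nuclear mRNAs. Their transcripts were taken by name, as symbols of the form Rpl or Rps followed by a digit, together with Rplp0, Rplp1, Rplp2 and Rpsa. Of the 99 names matched, 10 were S6 kinase genes, 4 were pseudogenes in the GENCODE annotation (Rpl31-ps12, Rpl32l, Rpl34-ps1 and Rpl37rt), and Rps23rg1 and Rpl39l did not reach a value of 1 in 80% of mice. This left 83 of the 17564 genes in the deposited table: 43 proteins of the large subunit, 31 of the small subunit, the 3 proteins of the stalk (Rplp0, Rplp1 and Rplp2), 5 paralogs (Rpl3l, Rpl7l1, Rpl22l1, Rpl36al and Rps27l) and Rps19bp1. Rps19bp1 met the name rule but encodes a protein that binds Rps19, not a ribosomal protein. Fau, which encodes a ribosomal protein fused to a ubiquitin-like protein, falls outside the name rule and is given separately.

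The RNA came from the anterior hypothalamus of 56 wild-type female C57BL/6J mice aged 9 weeks, with no genetic change in either group. Feeding was restricted for 7 days to the light period, from ZT0 to ZT12 (daytime-restricted feeding, DRF), or to the dark period, from ZT12 to ZT0 (nighttime-restricted feeding, NRF). ZT is the time in hours after lights on. Per regimen, 4 mice were taken every 4 h from ZT0 to ZT24, which gave 7 time points, and the mice at ZT24 were other animals than those at ZT0. Both groups were under restriction, so neither shows feeding without a time limit.

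A mammalian ribosome holds its proteins in fixed proportions around the ribosomal RNA. The small subunit reads the mRNA, the large subunit forms the peptide bond, and the stalk of the large subunit recruits the translation factors that use GTP. Most ribosomal protein mRNAs are TOP mRNAs, which begin with a cytosine and a run of pyrimidines. This terminal oligopyrimidine tract lets mTOR, through the protein Larp1, set how well these mRNAs are translated, and mTOR responds to nutrients. The tract acts mainly on translation and stability, so transcript levels, which are what was measured here, are only one side of ribosomal protein supply. Neurons and glia both need ribosomes, and the transcripts are among the more abundant ones in brain.

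The first bases of the transcripts carry this feature, and it was searched for in the RefSeq promoter table for mouse assembly GRCm38.p6, which has an entry for 63 of the 83 genes. A C at the annotated start with at least 4 further pyrimidines was present in 12 of the 63 (19.0%) and in 2.31% of all 12810 promoters in the table. A run of 8 or more pyrimidines within 15 bases of the start was present in 39.7% of the members and 12.1% of all promoters. Annotated starts can lie a few bases away from the start a cell uses. The windows below run from 15 bases before the annotated start to 15 bases from it. Capitals mark the pyrimidine run that begins at the start base, or the start base alone where it is not followed by such a run. The first 4 hold the tract (Rps6 is the substrate that S6 kinases are named for, and Rps18, Rpl28 and Rpl35 were called rhythmic in NRF), and the last 3 have another sequence at their annotated start (Rpsa and Rps16 were among the members with the smallest p-values, and Rplp0 is a common reference gene). Rps6 lies at chr4:86857353-86857382 on the minus strand, Rps18 at chr17:33955651-33955680 on the minus strand, Rpl28 at chr7:4792950-4792979 on the plus strand and Rpl35 at chr2:39005117-39005146 on the minus strand. Rpsa lies at chr9:120127751-120127780, Rps16 at chr7:28350674-28350703 and Rplp0 at chr5:115559452-115559481, all on the plus strand.
Rps6: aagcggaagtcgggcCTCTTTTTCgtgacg
Rps18: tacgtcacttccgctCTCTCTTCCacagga
Rpl28: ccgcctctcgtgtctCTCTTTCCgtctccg
Rpl35: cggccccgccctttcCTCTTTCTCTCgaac
Rpsa: gtgggttatttaaggAcgtcatttccggcc
Rps16: cccgcttctgtcgtgAcgtagcactcaatg
Rplp0: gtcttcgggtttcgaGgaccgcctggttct

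Longer motifs were searched on both strands in the window from 250 bases before to 50 bases after each start. CGGAAG, the core letters bound by ETS factors such as GABPA, occurred in 43 of the 63 members (68.3%) and in 27.5% of all promoters. CCGGAAGT, which contains it, occurred in 12 members (19.0%, against 6.96%). CTCTTTCC occurred in 9 members (14.3%, against 3.01%) and overlaps the tract itself in the Rpl28 sequence above. CCAAT occurred in 31.7% of members and 38.5% of all promoters. These are matches of letters and not measured binding.

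Levels were compared between genes on a per-length scale, as TPM (reads divided by transcript length and scaled to the same sum in every mouse), computed from the recovered reads and the length of the principal transcript in GENCODE. The highest mean level over the 56 mice was that of Rps15, a small subunit protein, at 1419 ± 129.1 TPM (SD, n = 56). Rpl41, the shortest ribosomal protein, followed at 1268 ± 138.7 TPM, Rpl23a at 1242 ± 76.4, Rpl21 at 1235 ± 77.9 and Rpl3, a large subunit protein that reaches the peptidyl transferase centre, at 1133 ± 74.3. Rpl21 was the only member whose reads could not be resolved from its values. The median level was 534.3 TPM in the large subunit, 603.6 TPM in the small subunit and 461.1 TPM in the stalk, so transcripts of both subunits lay in the same range.

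The lowest levels were those of paralogs and a few canonical members. Rpl3l, a paralog of Rpl3 known from heart and skeletal muscle, was at 0.444 ± 0.196 TPM, and Rps27l was at 36.0 ± 4.02 TPM. Rps19bp1 was at 28.5 ± 3.11 TPM. Among canonical members Rps20 was at 40.1 ± 3.82 TPM and Rps6 at 87.6 ± 8.03 TPM. The principal transcript of Rps20 in the annotation is 3706 bases long, against a median of 729 bases over the members, and its mean of 59.6 CPM was divided by that length. Reads of 14 members, among them Rps6, Rps16, Rpl5, Rpl11 and Rpl23, came out with 2 decimals, as RSEM gives where reads are shared out between transcripts, so their levels are less certain. The remaining paralogs were at 91.2 ± 4.84 TPM (Rpl7l1, which acts in ribosome assembly), 123.5 ± 16.5 TPM (Rpl22l1) and 225.9 ± 19.3 TPM (Rpl36al). Rpl22, the partner of Rpl22l1, was at 317.2 ± 17.0 TPM. Together the 83 transcripts took between 1.24 and 1.88% of the reads of a mouse, with a median of 1.48%, and between 4.15 and 5.81% of TPM.

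**Figure D1:**
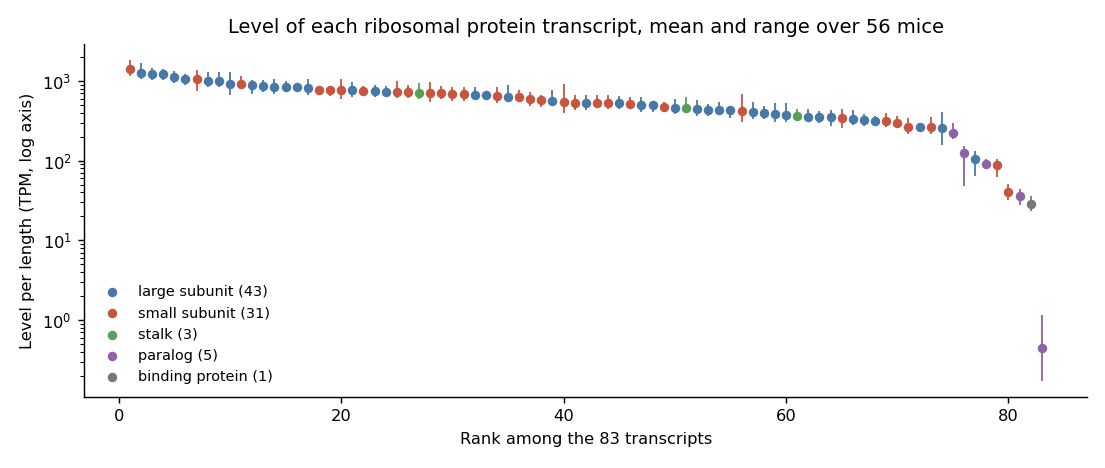
Level of each of the 83 transcripts in TPM on a log axis against its rank, with the mean (point) and the lowest to highest value over 56 mice (line), coloured by class. Nearly all canonical members of both subunits lie above 100 TPM, and the paralog Rpl3l stands apart at 0.444 TPM.

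Depth was close to even, with 29509466 to 33919250 recovered reads in listed genes per mouse, and log2(CPM + 1) of mice of the same group correlated at 0.984 to 0.998 across genes. CPM is the read count scaled to a common library size after TMM normalization. In every library the deviation of 11155 other transcripts from their own mean was also fitted against length and GC content. These were non-members above a minimum level, and length was mostly that of all exons of a gene joined. In 3 libraries these trends lay far from the rest: DRF ZT16 replicates 3 and 4 in GC content and NRF ZT4 replicate 2 in length. Results that rest on them are given with and without them. Defining markers of neurons, astrocytes, oligodendrocytes and the anterior hypothalamus were all found, the lowest gene of each list averaging 129.4, 66.1, 59.3 and 6.37 CPM. Every other marker list was also found in full, among them blood, pituitary, choroid plexus and thalamus or cortex. A gene counted as found even at a very low level, such as a pituitary gene with a mean of 0.0297 CPM. Finding a list in full therefore does not show which tissue was sampled or how cleanly it was dissected. In whole tissue, fewer cells of a type and less RNA per cell cannot be told apart.

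In NRF mice the group means of the ribosomal protein transcripts were mostly highest from ZT0 to ZT8 and lowest at ZT20 and ZT24. The group mean was highest at ZT4 for 44 members, at ZT0 for 21 and at ZT8 for 9, and it was lowest at ZT24 for 47 and at ZT20 for 34. ZT0 and ZT24 are the same time of day in different mice, so the high values at ZT0 and the low ones at ZT24 do not mark separate phases of the day. The ratio of the highest to the lowest group mean had a median of 1.196 over the members. By JTK_CYCLE and the Lomb-Scargle periodogram combined, 23 of 83 members were rhythmic at an adjusted p-value under 0.05, a share of 27.7% beside 27.5% of all 16245 transcripts tested. On the deposited values the share called was thus close to that of all transcripts. On log2(CPM + 1) the same test called 37 of 83 members, a higher share than the 4519 of 16067 transcripts. With median-of-ratios normalization these counts were 38 and 4547. In time of day, 75 of 83 had the peak of the fitted 24-h cosine between ZT5 and ZT10, against 31.2% of all transcripts tested, and 22 of the 23 called members did. The circular mean of the peaks was ZT7.38, and the median amplitude was 0.082 log2 units, against 0.073 for all transcripts. The window was not part of the planned tests and lies around the members' own mean peak. The members also moved together, so these shares describe the peaks and do not test them.

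Rps16, a small subunit protein, was the member with the smallest adjusted p-value in NRF (3.73e-05). Its CPM in the 4 mice was 124.1, 138.9, 126.9 and 135.4 at ZT8 and 98.4, 106.0, 101.0 and 107.5 at ZT20. Every mouse at ZT8 lay above every mouse at ZT20. The amplitude was 0.16 ± 0.035 log2 units (SE) with a peak at ZT6.97. Rps2, another small subunit protein, had 313.8, 332.4, 317.0 and 341.6 CPM at ZT8 and 267.2, 279.8, 260.5 and 258.7 CPM at ZT20. These groups did not overlap either, and the amplitude was 0.13 ± 0.028 with a peak at ZT7.97 (adjusted p = 0.000163). Rpsa, the laminin receptor precursor and a small subunit protein, had 633.1, 668.2, 639.0 and 655.6 CPM at ZT8, above the 557.7, 585.5, 560.7 and 560.5 CPM at ZT20. Its peak was at ZT7.43 (adjusted p = 0.00229). Of the 12 marker lists of cell types and regions, those of thalamus or cortex (38.1 to 83.4 summed CPM at ZT8 and 108.9 to 177.4 at ZT20) and of endothelial cells (123.4 to 134.4 and 147.3 to 159.6) were also separate between these NRF groups, in the direction opposite to the members, and their part in the members' changes was not tested.

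The other members with small adjusted p-values were in the large subunit. Rpl10a peaked at ZT7.54 with an amplitude of 0.14 ± 0.031 (adjusted p = 0.00209), and its 4 mice ranged from 109.7 to 120.2 CPM at ZT8 and from 92.3 to 98.3 CPM at ZT20. Rpl7a peaked at ZT8.39 (amplitude 0.091, adjusted p = 0.00155) and Rpl12, which lies at the base of the stalk, at ZT8.05 (amplitude 0.10, adjusted p = 0.00229). Rpl11, which with Rpl5 and the 5S RNA can bind the p53 regulator Mdm2, peaked at ZT9.41 (amplitude 0.12, adjusted p = 0.00231). Its partner Rpl5 was not called, with an amplitude of 0.024 log2 units and an adjusted p of 1. The other called members included Rps13, Rpl18, Rpl15, Rpl35, Rpl28, Rpl29, Rplp1, Rpl13, Rps20, Rps18, Rps26, Rpl8 and Rps9.

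Rpl7l1 was the called member with another time of day. Its NRF group means from ZT0 to ZT24 were 49.99, 47.9, 46.4, 46.6, 50.5, 50.3 and 46.4 CPM, with a fitted peak at ZT19.1 and an amplitude of 0.056 ± 0.018 (adjusted p = 0.00146). Its 4 values were 52.5, 52.2, 48.8 and 48.4 CPM at ZT16 and 45.3, 45.1, 45.9 and 49.4 CPM at ZT8, so these groups overlapped. The limma F test did not call Rpl7l1 (adjusted p = 0.138). The members with peaks outside ZT5 to ZT10 were, besides Rpl7l1, Rps15a (ZT23.1), Rps19bp1 (ZT18.8), Rpl3l (ZT11.9), Rpl36 (ZT11.6), Rpl34 (ZT11.4), Rpl35a (ZT4.80) and Rpl36al (ZT3.46). Rpl36, chosen after its values were seen, had the largest NRF amplitude of the members (0.18 ± 0.063) but was not called (adjusted p = 0.321). Its CPM ranged from 23.2 to 56.4 over the 28 NRF mice, with a median of 39.9.

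**Figure D2:**
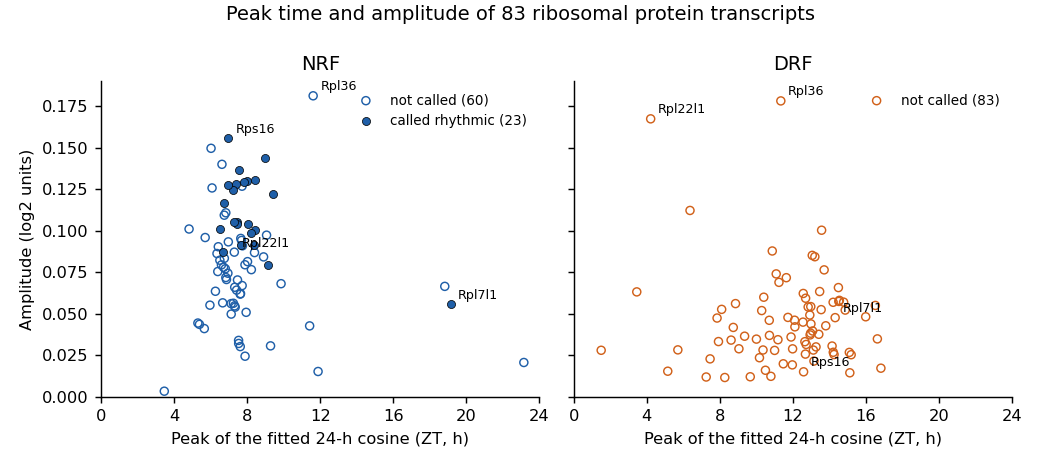
Peak time (ZT, h) and amplitude (log2 units) of a 24-h cosine fitted to each of the 83 transcripts, in NRF (left) and DRF (right). Filled points are the 23 transcripts called rhythmic in NRF; none was called in DRF. In NRF 75 peaks lie between ZT5 and ZT10, and in DRF 62 lie between ZT10 and ZT16, a position that depends on the 2 DRF ZT16 libraries that stand apart.

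Genes that serve as references in quantitative PCR were among the members. Rplp0, the stalk protein that anchors the other stalk proteins, was not called in NRF (adjusted p = 0.779), and its CPM ranged from 174.4 to 225.2 over the NRF mice (median 195.5) and from 166.7 to 249.1 over the DRF mice (median 192.9). Rpl13a, a large subunit protein, was not called by the combined test (adjusted p = 0.298) and was called by the limma F test (adjusted p = 0.046, amplitude 0.090). Rpl19 had an amplitude of 0.062 and was called by neither, with adjusted p-values of 1 and 0.301. Rps18 was called by both (adjusted p = 0.0289 and 0.0179), with an amplitude of 0.13 and 48.4 to 72.9 CPM over the NRF mice.

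Other members with known roles had amplitudes on either side of the members' median. Rplp1 and Rplp2, the acidic stalk proteins, had NRF amplitudes of 0.12 and 0.096, of which Rplp1 was called (adjusted p = 0.020). Rps6 had an amplitude of 0.044, Rps25, known for translation from internal entry sites, 0.057, and Rps27a, made as a ubiquitin fusion, 0.082. Rpl22 had 0.054, Rpl10, which joins the large subunit late in its assembly, 0.064, Rpl3 0.067, Rpl38, known for its part in the translation of Hox mRNAs, 0.087, and Rpl41 0.13. Of the members in this paragraph, Rplp1 alone was called by the combined test, and limma called none. The limma F test of the 24-h cosine called 19 members in NRF (27.9% of all transcripts), of which 16 were also called by the combined test.

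The NRF count depended on the test, the scale and the sampling times. JTK_CYCLE alone called 23 members, and the Lomb-Scargle periodogram alone called 0, with 10 at an unadjusted p-value under 0.05. Without ZT24 the combined test called 5 members and 2936 of all 16245 transcripts, without ZT8 it called 8 and 2339, without ZT20 8 and 3186, and with 3 mice per time point 6 to 11 and 2016 to 3136, against 23 and 4467 with all mice. Without NRF ZT4 replicate 2, 70 of 83 members peaked between ZT5 and ZT10, against 29.9% of all transcripts, and the circular mean was ZT8.19.

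**Figure D3:**
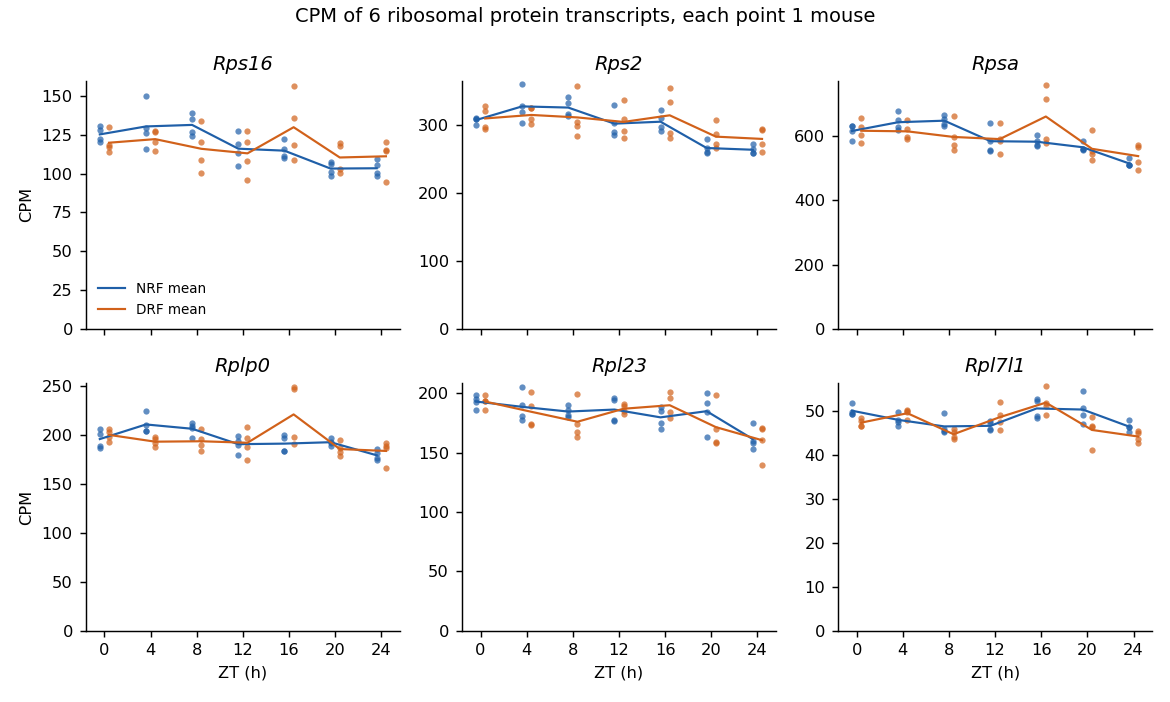
CPM of Rps16, Rps2, Rpsa, Rplp0, Rpl23 and Rpl7l1 against ZT (h), with each mouse as a point and the mean of 4 mice as a line, NRF in blue and DRF in orange. Rps16, Rps2 and Rpsa fall from ZT8 to ZT24 in NRF, and the highest DRF points of Rplp0 and Rpsa are at ZT16.

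In DRF mice none of the members was called rhythmic. The combined test called 0 of 83 (0.806% of all transcripts), with 0 at an unadjusted p-value under 0.05, and JTK_CYCLE alone and the Lomb-Scargle periodogram alone called 0 as well. The limma F test called 0 (4.05% of all transcripts), with 3 at an unadjusted p-value under 0.05. The median amplitude was 0.040 log2 units, and the amplitude was larger in NRF than in DRF for 67 of the 83 members and for 9943 of all 16067 transcripts. The group mean was highest at ZT16 for 62 members and lowest at ZT24 for 54. The fitted peaks lay between ZT10 and ZT16 for 62 members (28.5% of all transcripts), with a circular mean of ZT11.9. This wider window was likewise not planned and lies around that mean, so the share is a description.

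That position rested on the DRF ZT16 libraries. Without replicates 3 and 4 of DRF ZT16, 63 of 83 members peaked between ZT5 and ZT10 (25.9% of all transcripts), the circular mean was ZT6.82, and the median amplitude was 0.046. With all libraries kept and each library's trends with length, GC content and level removed, 45 members peaked between ZT10 and ZT16 in DRF (25.7% of all transcripts). The circular mean in DRF was then ZT14.1. In NRF 53 members then peaked between ZT5 and ZT10 (30.7% of all transcripts). The median amplitude of the 83 members in NRF was then 0.052, against 0.065 for all transcripts.

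To follow the members as a whole, each mouse was given the median over the 83 transcripts of the log2 deviation from the mean of each transcript over all mice. In NRF this median deviation was 0.0575 ± 0.0715 (SD, n = 4) at ZT0, 0.0922 ± 0.132 at ZT4, 0.0582 ± 0.0298 at ZT8, 0.0132 ± 0.0570 at ZT12, -0.0101 ± 0.0740 at ZT16, -0.0965 ± 0.0851 at ZT20 and -0.112 ± 0.0210 at ZT24. In DRF it was 0.0364 ± 0.0621, 0.0283 ± 0.0675, -0.0019 ± 0.0990, 0.0078 ± 0.0757, 0.112 ± 0.203, -0.0616 ± 0.0682 and -0.0883 ± 0.106 at the same times. Both regimens ended lowest. The 4 DRF mice at ZT16 were at -0.096, -0.016, 0.34 and 0.21, so the high mean came from the pair of libraries that stand apart. The highest NRF mouse, ZT4 replicate 2 at 0.29, was the third such library. The lowest of all mice was DRF ZT24 replicate 4, at -0.24. Its library had the highest slope against length, 0.088 log2 units per doubling, and was kept when those 3 libraries were left out.

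**Figure D4:**
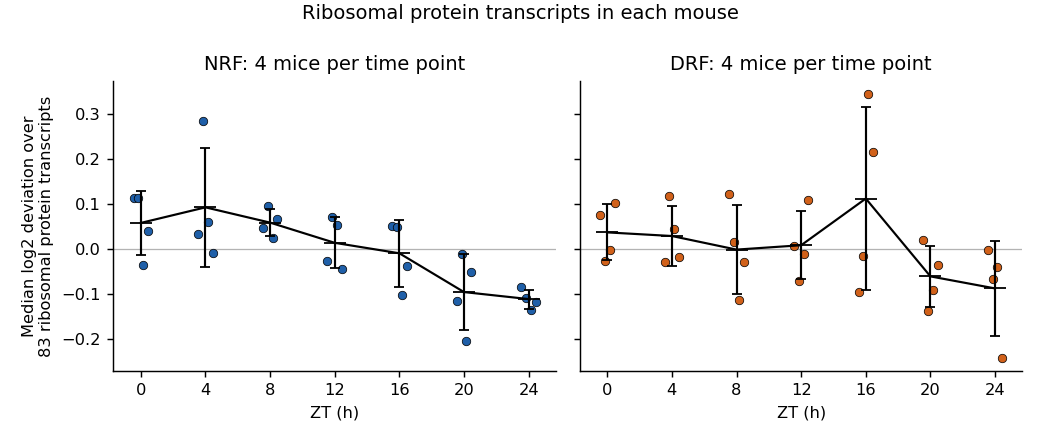
Median log2 deviation over the 83 transcripts in each mouse against ZT (h), NRF left and DRF right, with points for mice and bars for the mean and SD of 4 mice. In NRF the mean falls from 0.0922 at ZT4 to -0.112 at ZT24, and in DRF the mice at ZT16 spread from -0.096 to 0.34.

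The rhythm itself was compared between DRF and NRF by a limma F test of the cosine terms, fitted to the 56 mice together. No member differed at an adjusted p-value under 0.05 (0 of 83, beside 11.0% of all transcripts), and 8 did at an unadjusted p-value under 0.05, beside 4740 of 16067 transcripts: Rps19, Rps13, Rplp2, Rps16, Rps18, Rplp0, Rpl10a and Rpl35. The smallest adjusted p-value was 0.113, for Rps19. The 23 calls in NRF and 0 in DRF are therefore no test of a difference, and for no single member did that test pass. The mean level over all time points also gave 0 calls by limma, beside 5.62% of all transcripts higher and 4.93% lower in DRF. In that comparison 0 members had an unadjusted p-value under 0.05, beside 4204 of 16067 transcripts. The DRF minus NRF difference of the mean level had a median of 0.0030 log2 units over the members, with 44 above and 39 below 0, and ran from -0.096 ± 0.054 (SE) for Rpl22l1 to 0.054 ± 0.030 for Rps19.

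At single time points limma called members at ZT16 alone, and these calls rested on the pair of DRF libraries that stand apart. It called 7 of 83 members higher in DRF, a share near the 6.70% of all transcripts, and 1 lower, beside 13.5% of all transcripts. These are named because they were called, which the naming rule did not foresee. The higher ones included Rpl8 by 0.23 log2 units, Rpl14 by 0.22, Rplp0 by 0.20, Rps9 by 0.19, Rpl3 by 0.18 and Rpsa by 0.17, with adjusted p-values of 0.0139 (Rplp0) to 0.0453 (Rpsa). Rplp0 had 190.5, 198.0, 247.3 and 249.1 CPM in DRF and 196.9, 200.4, 184.0 and 184.1 CPM in NRF. Replicates 3 and 4 of DRF were above all NRF mice, and the others lay within the NRF range. Rpl22l1 was lower in DRF by 0.40 ± 0.14 log2 units (adjusted p = 0.0413), with 26.7, 30.6, 19.4 and 10.7 CPM against 27.3, 30.4, 24.5 and 27.1 in NRF. Its 2 low values were again replicates 3 and 4. Without the libraries that stand apart limma called 0 members at ZT16, with 31 of all 16067 transcripts called in place of 3244. The median difference over the members went from 0.11 to -0.053, and Rpl22l1 was higher in DRF by 0.065. That fit kept only replicates 1 and 2 of DRF at ZT16, so it had less power. With 3 mice per group, limma called 33 members without replicate 1 and 20 without replicate 2. It called 0 without replicate 3 and 0 without replicate 4. At ZT16 the summed CPM of 4 of the 12 marker lists did not overlap between the regimens. Neuron markers (3006 to 3436 in DRF, 3511 to 3936 in NRF), endothelial markers (120.0 to 133.9 and 137.7 to 146.6) and thalamus or cortex markers (48.9 to 92.6 and 104.1 to 201.6) were lower in DRF, and pituitary markers (27.4 to 38.4 and 16.3 to 24.7) were higher. Blood markers reached 774.3 in DRF and 343.5 in NRF, with overlap, and the part of these lists in the calls was not tested.

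The other 6 time points gave 0 member calls each by limma. The shares of all transcripts called higher and lower in DRF were 2.36 and 2.13% at ZT0, 2.80 and 1.13% at ZT4, 0.0560 and 0.118% at ZT8, 0.971 and 0.523% at ZT12, 0.535 and 0.597% at ZT20, and 0.174 and 0.0996% at ZT24. Unadjusted p-values under 0.05 were found for 2 members at ZT0, 7 at ZT4, 2 at ZT8, 0 at ZT12, 3 at ZT20 and 0 at ZT24. Over all 16067 transcripts these counts were 2833, 2877, 2151, 2672, 2197 and 1310 in the same order. By sign alone, 77 of 83 members were lower in DRF at ZT4 and 67 at ZT8, beside 8255 and 8011 of 16067 transcripts. Of 83 respiratory chain subunits, 76 were lower at ZT4 and 76 at ZT8. The members moved together, so their signs are not separate observations.

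ZT0 and ZT24 are the same time of day, sampled in different mice, and the members were lower at ZT24. In NRF limma called 6 members lower at ZT24 (0.778% of all transcripts) and 0 higher (1.29%), and 54 of the 83 had an unadjusted p-value under 0.05, beside 3088 of all 16067 transcripts. The difference was below 0 for 82 of 83 members, Rpl39 at 0.015 being the exception, with a median of -0.17 log2 units against -0.0056 for all transcripts. Rpsa fell by 0.26 ± 0.063 log2 units (adjusted p = 0.028), from 632.8, 616.4, 584.4 and 633.9 CPM at ZT0 to 533.3, 510.7, 510.1 and 509.5 CPM at ZT24. The groups were clearly separate. Rps26 fell by 0.36 ± 0.090 (adjusted p = 0.0292), from 219.5, 207.1, 205.3 and 232.4 CPM to 171.1, 171.7, 165.0 and 162.1 CPM. Rpl23, a large subunit protein, fell by 0.26 ± 0.065 (adjusted p = 0.0305), from 195.3, 198.2, 186.0 and 192.7 CPM to 159.6, 152.8, 158.4 and 174.7 CPM. These groups did not overlap in either case.

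Rpl24 fell by 0.26 ± 0.066 (adjusted p = 0.0305), from 196.4 to 222.2 CPM over the ZT0 mice to 174.4 to 184.7 CPM over the ZT24 mice. Rpl27 fell by 0.28 ± 0.078 (adjusted p = 0.0444), from between 101.9 and 108.4 CPM to between 85.9 and 89.1 CPM. Rps10 fell by 0.27 ± 0.077 (adjusted p = 0.0475), from between 142.8 and 145.8 CPM to between 113.4 and 123.2 CPM. Rpl36 had the most negative value, -0.42 ± 0.19, and did not pass the test (adjusted p = 0.192). All 4 ZT24 mice lay below all 4 ZT0 mice in 51 of the 83 members, and this held for 10.4% of all transcripts. Without NRF ZT4 replicate 2 and the DRF ZT16 pair, whose spread enters the common estimate, limma called 30 members and 1295 of all 16067 transcripts, against 332 with them. With any of the 4 replicate numbers left out it called 0 members, and at most 1 of all transcripts.

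In DRF limma called 1 member lower at ZT24 (0.212% of all transcripts) and 0 higher (0.280%), with 31 members at an unadjusted p-value under 0.05, beside 2409 of all 16067 transcripts. This was Rpl23, which fell by 0.27 ± 0.065 (adjusted p = 0.0421), from 193.6, 186.2, 193.4 and 198.9 CPM at ZT0 to 170.7, 170.1, 161.0 and 139.9 CPM at ZT24. Its 4 ZT24 values were all below the ZT0 values, in DRF as in NRF. The lowest DRF value, 139.9 CPM, was that of ZT24 replicate 4, the mouse with the lowest median deviation. The median over the members was -0.12, 78 of 83 were below 0, and 15 had groups that did not overlap with ZT24 lower (4.55% of all transcripts). The fall from ZT0 to ZT24 was not compared between regimens by a test.

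The members rose and fell together from mouse to mouse. After each group mean was taken out, the correlation between pairs of members over the 56 mice had a median of 0.69 over 3403 pairs, against 0.34 in mitochondrial ribosomal proteins, 0.26 in proteasome subunits and 0.55 in respiratory chain subunits. These are descriptions of one set of libraries, in which members share depth and normalization. Rpl22l1 (r = -0.036 with the median of the other members), Rps6 (-0.011), Rpl3l (0.097) and Rps15a (0.17) followed the others least.

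The shared part moved with transcript length in the library. The median deviation per mouse correlated at r = -0.81 (Spearman's rho = -0.85, n = 56 mice) with the library's slope of the 11155 other transcripts against length. It was -0.75 without the 2 mice farthest from the median slope. Within NRF r was -0.93 and within DRF -0.85, both over 28 mice. For the slope against GC content it was 0.55, and 0.35 without the 2 farthest mice. The members are short, with a median principal transcript of 729 bases against 2760 for all transcripts tested. The length slope of the NRF mice ran from -0.058 to -0.0066 log2 units per doubling of length at ZT0 and from 0.039 to 0.059 at ZT24, so the groups also differed in this slope without overlap. With the trends of each library removed, the NRF median from ZT0 to ZT24 was -0.067 in place of -0.17, and Rpsa was the only member called, beside 89 of 15899 transcripts. The part of the length slope in the members' changes was not tested beyond this.

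**Figure D5:**
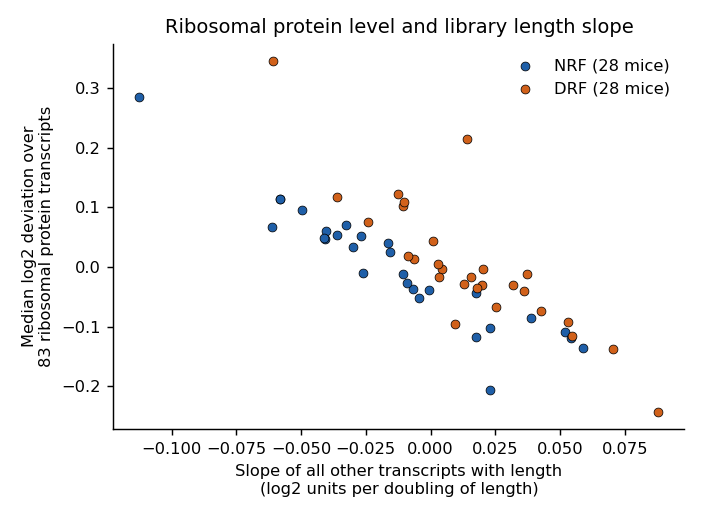
Median log2 deviation over the 83 transcripts in each mouse against the slope of the 11155 other transcripts in the fit with length (log2 units per doubling of length), with NRF mice in blue and DRF mice in orange. The points fall along a descending line, with r = -0.81 over 56 mice.

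The marker lists differed in how they moved between ZT0 and ZT24 in NRF. The summed CPM of 6 neuron markers ran from 3449 to 3559 at ZT0 and from 3453 to 3585 at ZT24, and that of 5 astrocyte markers from 1311 to 1387 and from 1344 to 1402. The 5 oligodendrocyte markers ran from 5269 to 6059 and from 4866 to 5483 CPM. In 4 of the 12 lists ZT0 and ZT24 did not overlap. Markers of the anterior hypothalamus (536.2 to 655.9 CPM at ZT0, 433.0 to 528.4 at ZT24), ependymal cells (40.7 to 48.4 and 32.4 to 40.6) and the pituitary (26.9 to 30.04 and 18.8 to 25.7) were lower at ZT24, and oligodendrocyte precursor markers (85.5 to 95.9 and 96.7 to 106.1) were higher. The 3 blood markers were at 210.1 to 324.3 and 136.9 to 223.4 CPM, and the 4 thalamus or cortex markers at 60.5 to 75.5 and 60.6 to 204.4 CPM. limma called 0 marker genes of any list in this comparison. Over all mice the correlation of the lists with the median deviation ran from -0.49 (endothelial) to 0.42 (pituitary), and the part of dissection or cell content in the members' changes was not tested.

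Families that also encode subunits of large complexes are given for comparison. Of 78 mitochondrial ribosomal proteins, 26 were rhythmic in NRF and 50 peaked between ZT5 and ZT10. Of 39 proteasome subunits, 14 were rhythmic and 17 peaked in that window. Of 83 respiratory chain subunits, which are as short as the members (median 709 bases), 17 were rhythmic and 73 peaked in the window, with a median fall from ZT0 to ZT24 in NRF of the same size (-0.17). Over all transcripts tested, 27.6% were rhythmic in NRF and 31.2% peaked in the window. None of these families had a rhythmic gene in DRF, where the combined test gave 3, 0 and 0 genes at an unadjusted p-value under 0.05. In mean level, limma called 9 mitochondrial ribosomal proteins, 4 proteasome subunits and 14 respiratory chain subunits lower in DRF. It called 0 cytosolic ribosomal proteins lower, and 4.93% of all transcripts. The medians of the 3 families were -0.034, -0.021 and -0.039, beside 0.0030 for the members. These differences between families were not tested.

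Genes that share the pathway of the members were taken from fixed lists. Fau was not called rhythmic in NRF and had its fitted peak at ZT7.78, within the members' window. Of 20 other TOP mRNAs, most of them of the translation machinery, 4 were rhythmic in NRF: Eif3f (peak ZT9.37), Hnrnpa1 (ZT9.79), Eif3k (ZT7.11) and the poly(A)-binding protein Pabpc1 (ZT15.2). In mean level Tpt1 was lower in DRF by 0.082 log2 units (adjusted p = 0.0138) and Eif4b, a helper of the cap-binding complex, higher by 0.064 (adjusted p = 0.0096). The shares of all transcripts called were 4.93% lower and 5.62% higher.

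Of 18 regulators of TOP mRNAs and ribosome production, 3 were rhythmic in NRF: Eif4ebp2, a repressor of cap-dependent translation (peak ZT19.7), Tial1 (ZT20.1) and the S6 kinase Rps6kb2 (ZT10.5). In mean level 4 were higher in DRF, namely Mtor by 0.082 (adjusted p = 0.0089), its partner Rptor by 0.082 (0.0069), and Tsc1 and Tsc2, which together restrain mTOR, by 0.12 (0.0013) and 0.068 (0.0166). Eif4e, the cap-binding protein, was lower by 0.083 (0.0339) and Cnbp by 0.081 (0.0457). Over all transcripts 5.62% were called higher in DRF and 4.93% lower. With a replicate number left out, limma called 394 to 2353 of all transcripts in mean level, in place of 1695. The regulators are long, with a median of 4788.5 bases against 2760 for all transcripts tested. The part of transcript length in these calls was not tested. Of 24 ribosome biogenesis genes, 6 were rhythmic in NRF: Ubtf, Ltv1, Nolc1, Rrn3, Ncl and Eif6, of which only Eif6 peaked between ZT5 and ZT10 (ZT9.10). Polr1a, the largest subunit of RNA polymerase I, was higher in DRF by 0.13 (adjusted p = 0.0013) and Tcof1 by 0.11 (0.0037). None of these listed genes was rhythmic in DRF by the combined test.

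Members whose annotated start holds the tract gave values near those of the other members. Of the 12 with the tract 4 were called rhythmic in NRF, and of the 51 without it at the annotated start 13 were. The median amplitude was 0.087 and 0.079, and the median change from ZT0 to ZT24 in NRF was -0.13 and -0.17 log2 units. An annotated start can lie a few bases from the one a cell uses, so the 51 can include TOP mRNAs. The split therefore cannot show what the tract does.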

How the data were processed

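Samples were grouped by the feeding regimen and ZT in the labels, with 4 mice per group. Per the study's methods and labels, polyA RNA was sequenced as paired reads, mapped with HISAT2 to GRCm38.p6, aligned to coding genes with Bowtie2, counted with RSEM and normalized by TMM. The deposited values, named TPM by the authors, are treated as a score: their steps in genes with few reads follow log2(CPM + 1), put on a per-length basis and scaled to a nearly constant sum per mouse. They were inverted to log2(CPM + 1) for 17356 genes, with a median relative deviation from whole-read steps of 1.98e-08 in 581 genes. A fold change of a deposited value understates that of the transcript, so differences are given on the log2(CPM + 1) scale, with a pseudocount of 1.

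The 16245 transcripts that reached a value of 1 in 80% of mice were tested for rhythm on the deposited values by re-implemented JTK_CYCLE and Lomb-Scargle tests (periods 20 to 28 h), combined by Fisher's method. Levels and cosine terms were tested with limma 3.58.1 in R 4.3.3 on log2(CPM + 1) of 16067 transcripts. All tests were two-sided or F tests, with Benjamini-Hochberg adjustment over all transcripts. Tables were handled in Python 3.11.15 (numpy 2.4.6, pandas 2.3.3, scipy 1.17.1), and the code was tested on simulated data. The p-values measure the spread between these mice. A few members and listed genes are counted but not reported here by name. The members and gene lists were chosen with earlier results of these data known.

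Named members were those called for rhythm difference, mean level or ZT24 minus ZT0, the 8 with the smallest adjusted p in each rhythm test, the 5 highest and 5 lowest by level, and members fixed for their role or as paralogs. Alternatives covered other normalization, filters, pseudocounts, array weights, library trends removed, a replicate block, and time points, replicates or libraries left out. Leaving out the 3 libraries that stand apart was chosen after seeing the data.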

Additional observations from a re-analysis of the deposited data

Results flagged for a closer look

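In 140 groups of 4 mice, over 10 members in 14 groups each, the highest or lowest mouse was checked for a gap to its neighbour that was wide for the range of the group, at a level where chance flags about 1 in 20 groups. Such a gap occurred in 4 groups. The lowest NRF mouse at ZT0 had 300.4 CPM of Rps2, against 309.3 to 311.1 in the other 3. The highest NRF mouse at ZT20 had 585.5 CPM of Rpsa, against 557.7 to 560.7, and the highest NRF mouse at ZT24 had 533.3 CPM of Rpsa, against 509.5 to 510.7. The lowest DRF mouse at ZT4 had 47.8 CPM of Rpl7l1, against 49.8 to 50.1.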

How the results depend on the processing

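Of the summary values under the alternatives, 244 stayed within 1.5 times the reported count or 1 SD, and 66 moved. Of the single-member values, 2124 kept their direction and side of the threshold, 133 lost a call, 30 gained one and 2 reversed. The cause of the changes was not tested. Members rhythmic in NRF (23) numbered 0 by the Lomb-Scargle periodogram alone, 37 on the log2 scale, 38 with median-of-ratios normalization, 15 without ZT4, 8 without ZT8, 8 without ZT20, 5 without ZT24 and 6 to 11 with a replicate left out. In DRF 1 was rhythmic without ZT4. DRF peaks between ZT5 and ZT10 (15) numbered 23 without ZT8, 58 without ZT16, 63 without the libraries that stand apart and 5 to 46 with a replicate left out.

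With library trends removed, calls were 1 for the rhythm difference, 7 for mean level, 4 at ZT0, 1 at ZT4, 16 at ZT16, 1 at ZT20, 1 for NRF ZT24 against ZT0 and 6 for DRF, and the NRF median there was -0.067. With array weights they were 2 for the rhythm difference, 2 at ZT0, 1 at ZT4, 4 at ZT8, 0 at ZT16, 2 at ZT20, 51 for NRF and 5 for DRF ZT24 against ZT0, the ZT16 median was -0.013 and Rpl22l1 was higher in DRF at ZT16 by 0.034. Without the libraries that stand apart they were 1 for mean level, 0 at ZT16 (median -0.053, Rpl22l1 0.065), 1 at ZT20, 30 in NRF and 5 in DRF. Over all transcripts, the same fits called 89 (trends removed), 3021 (array weights) and 1295 (without those libraries) for NRF ZT24 against ZT0, in place of 332. Without ZT20, 1 member differed in rhythm. With a replicate left out, calls were 0 to 33 at ZT16 (median -0.0060 to 0.22), 0 in NRF and 0 to 3 in DRF.

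The replicate numbers did not pair the mice: same-numbered mice of both regimens correlated at -0.54 to 0.25 (median -0.013, 28 pairs), and 3 of 28 correlated best with their own number. With the number as a block limma called 9 members in NRF ZT24 against ZT0 and 8 at ZT16. With the block and library trends removed, calls were 1 for the rhythm difference, 7 for mean level, 3 at ZT0, 1 at ZT4, 14 at ZT16, 1 at ZT20, 1 in NRF (median -0.067) and 5 in DRF. With 29509466 or more reads per mouse, depth was not limiting except for Rpl3l, at 0.095 to 0.64 CPM.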
